A study of Mus musculus with 4 samples.

Results

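A group of 10 antiviral genes that type I interferon switches on was followed in induced regulatory T (iTreg) cells: Ifit1, Ifit2, Ifit3, Isg15, Usp18, Oasl2, Mx1, Rsad2, Ifi44 and Rtp4. They were chosen by symbol, and each matched 1 Ensembl ID, giving 10 of the 47729 gene rows in the count table. The cells were CD4 T cells from C57BL/6 mouse spleen, stimulated through CD3 and CD28 and cultured with IL-2 at 100 U/mL and TGF-β at 5 ng/mL, and with anti-IL-4 and anti-IFN-γ at 5 µg/mL each. FeSO4, a ferrous iron salt, was present at 50 µM in one group and was replaced by PBS in the other (Mock), for 4 days. Each group had 2 RNA-seq libraries. The methods describe pairs of samples from independent experiments, and the labels do not say what a replicate number marks, so p-values measure only the spread between these libraries. The labels name no added interferon in either group, and both held the antibody against IFN-γ.

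Type I interferons bind a receptor made of Ifnar1 and Ifnar2, which signals through the kinases Jak1 and Tyk2 to STAT proteins. A complex that includes Stat2 and Irf9 then binds the interferon-stimulated response element (ISRE) in the promoters of antiviral genes. IFN-γ signals through a receptor of its own, acts mainly on promoters with the gamma-activated site (GAS) and induces a partly overlapping set of genes.

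The 10 genes were close to silent in both groups, with the exception of Ifit2. Ifit1 was called higher in FeSO4, at 3.20-fold, a call from few reads that was lost without Mock replicate 1 or without FeSO4 replicate 1, and no member was called lower. The Ifit1 call was also lost in a fit that took the replicate number as a block. Ifit2, the most abundant member, differed little between groups. The other 5 tested members had point estimates above 0 that did not pass the test, and 3 had too few reads for one. Levels are given in CPM, read counts scaled to a common library total after TMM normalization, which evens out differences in composition between libraries.

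Gene rows held 35183187 to 40859178 reads per library. A count of 3, which is the limit that a count of 0 allows, stood for 0.0717 to 0.0876 CPM, and intervals and limits cover counting error only. The defining markers of CD4 T and iTreg cells were present, and their list summed to between 3953 and 4322 CPM per library. Of the 7 genes of that list, Foxp3, the transcription factor of regulatory T cells, fell by 0.60 on the log2 scale in FeSO4 (adjusted p = 0.000469, edgeR's quasi-likelihood test), the T cell receptor genes Cd3g and Trac rose by 0.50 and 0.19, and the other 4 did not pass. The Trac call was lost in 6 of 13 alternative fits, among them those without Mock replicate 2, FeSO4 replicate 1 or FeSO4 replicate 2 (adjusted p up to 0.253). Because whole cultures were sequenced, fewer cells of a type and less RNA per cell cannot be told apart.

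The promoter windows of 4 members held the ISRE core, searched on both strands as GAAANNGAAA. These stretches are shown because this element links the members to type I interferon. Windows ran from 250 bases before to 50 after the start site that RefSeq (GRCm38.p6) gives, and 7 members had one. The stretches read 5′ to 3′ on the gene's strand, and capitals mark the matches. They lie at chr19:34640773-34640825 on the plus strand for Ifit1, at chr19:34583361-34583428 on the plus strand for Ifit3, at chr4:156200863-156200908 on the minus strand for Isg15 and at chr12:26456551-26456584 on the minus strand for Rsad2.
Ifit1: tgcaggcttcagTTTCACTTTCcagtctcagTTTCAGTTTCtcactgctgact
Ifit3: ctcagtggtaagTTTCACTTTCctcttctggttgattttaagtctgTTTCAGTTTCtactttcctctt
Isg15: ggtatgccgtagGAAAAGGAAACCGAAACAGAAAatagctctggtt
Rsad2: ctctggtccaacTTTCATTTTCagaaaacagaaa

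Ifit1 held 2 matches, which began 104 and 85 bases before the start site. Ifit3 also held 2, at 156 and 122 bases before the start site of its window, which lies inside the RefSeq gene span. The 3 matches of Isg15 overlap one another and began 78, 72 and 66 bases before the start site, and the 1 match of Rsad2 began 120 bases before it. The windows of Ifit2, Oasl2 and Ifi44 did not contain these letters, and 3.44% of all 32851 RefSeq windows did. The GAS motif, searched as TTCNNNGAA, occurred in the window of 1 member, Ifit2, and in 8.3% of all windows. A match describes the letters of the window and was not measured as a binding site.

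Ifit1, Ifit2 and Ifit3 encode tetratricopeptide-repeat proteins that interferon induces. Ifit1 binds RNA whose cap lacks the methylation of host messages, and Ifit3 partners with other Ifit proteins. The 3 genes lie within one cluster on chromosome 19 of GRCm38.p6, with Ifit2 at 34550550 to 34576534, Ifit3 at 34583119 to 34588982 and Ifit1 at 34640889 to 34650009.

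Ifit1 (ENSMUSG00000034459) had 10 reads in Mock replicate 1 and 29 in Mock replicate 2, against 68 reads in FeSO4 replicate 1 and 39 in FeSO4 replicate 2. In CPM these were 0.246 and 0.693 in Mock against 1.98 and 1.05 in FeSO4. Both FeSO4 libraries lay above both Mock libraries, but the ratio differed between the numbered replicates, with a log2 ratio of 2.78 for number 1 and 0.57 for number 2 (0.05 CPM added to each value). The mean rose from 0.470 ± 0.316 to 1.52 ± 0.658 CPM (SD, n = 2). This was a log2 fold change of 1.68 ± 0.55 (SE; 95% interval 0.50 to 2.86), with an adjusted p of 0.0453 in edgeR's quasi-likelihood test. With the replicate number as a block the log2 fold change was 1.71, but the same test gave an adjusted p of 0.0575, so the call was lost. The call rested on single libraries: the adjusted p was 0.245 without Mock replicate 1 (log2 fold change 1.12) and 0.422 without FeSO4 replicate 1 (log2 fold change 1.16). Without Mock replicate 2 the log2 fold change was 2.61, with an adjusted p of 0.0274. Over 13 alternative fits the adjusted p ran from 0.0163 to 0.422 and was under 0.05 in 8.

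Ifit2 (ENSMUSG00000045932) had 796 and 650 reads in Mock and 558 and 651 in FeSO4, or 19.6 and 15.5 CPM against 16.3 and 17.6 CPM. The groups overlapped, with the highest and the lowest value both in Mock. Its mean was 17.6 ± 2.88 CPM in Mock and 16.9 ± 0.919 CPM in FeSO4, a log2 fold change of -0.05 ± 0.13 (adjusted p = 0.821, edgeR's quasi-likelihood test). The 95% interval of -0.33 to 0.22 bounds the change of this member more tightly than that of any other tested one.

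Ifit3 (ENSMUSG00000074896) had 7 and 11 reads in Mock and 15 and 27 in FeSO4, or 0.173 and 0.263 CPM against 0.438 and 0.729 CPM. Both FeSO4 libraries were above both Mock libraries. The log2 fold change of 1.41 ± 0.67 did not pass the test (adjusted p = 0.160, edgeR's quasi-likelihood test; 95% interval -0.01 to 2.83). Ifit3 has a near-identical neighbour, Ifit3b, which had 0 and 9 reads in Mock and 8 and 1 in FeSO4. Reads that fit both were not counted, so the Ifit3 values are uncertain. Between Ifit3 and Ifit1 RefSeq places Ifit3b and Ifit1bl2, and the span of Ifit1bl1 covers that of Ifit1. Ifit1bl1 had 75 and 1 reads in Mock and 12 and 15 in FeSO4, and Ifit1bl2 had 0 to 4 reads per library. The strand setting of the counting is not given in the sources used here.

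**Figure D1:**
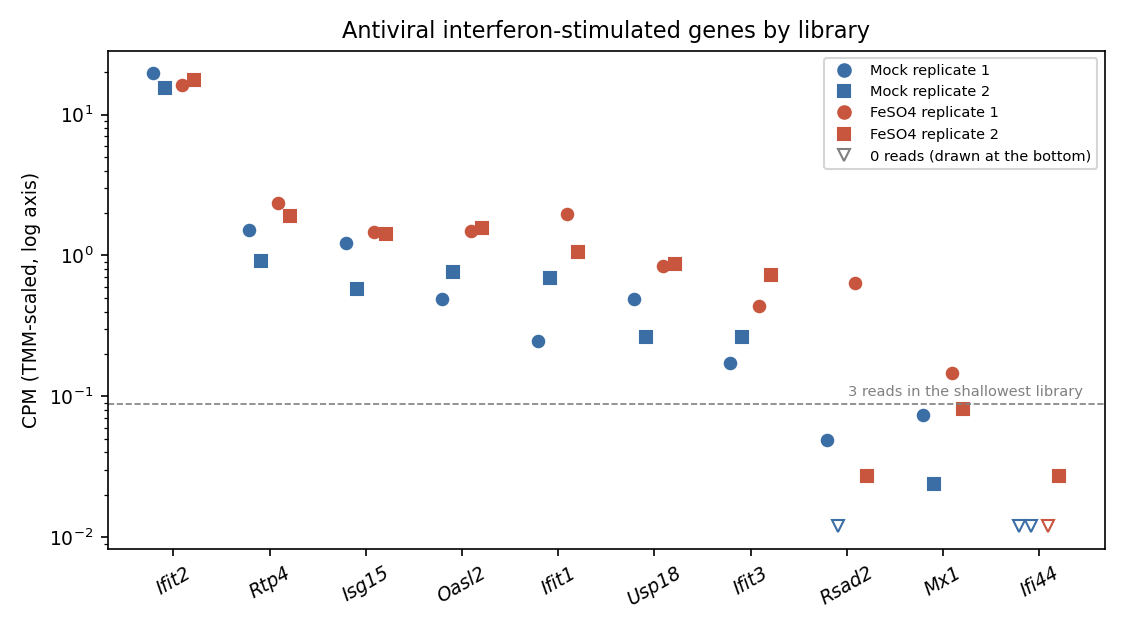
CPM on a log axis (vertical) of the 10 antiviral genes (horizontal, ordered by mean), with 1 point per library, Mock in blue and FeSO4 in red, open triangles for 0 reads and a dashed line at 3 reads in the shallowest library. Ifit2 stands alone near 17 CPM with overlapping groups, and Rsad2 is above the line in FeSO4 replicate 1 only.

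Isg15 and Usp18 belong to the ISG15 system, in which the ubiquitin-like protein Isg15 is attached to other proteins and Usp18 takes it off. Usp18 also dampens signalling at the interferon receptor. Isg15 (ENSMUSG00000035692, chromosome 4 at 156199424 to 156200818) had 50 and 24 reads in Mock and 50 and 53 in FeSO4, or 1.23 and 0.574 CPM against 1.46 and 1.43 CPM. The FeSO4 libraries lay above both Mock libraries, Mock replicate 1 by little. The log2 fold change was 0.68 ± 0.45 (adjusted p = 0.330, edgeR's quasi-likelihood test; 95% interval -0.29 to 1.65). It was 1.32 without Mock replicate 1 and 0.23 without Mock replicate 2.

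Usp18 (ENSMUSG00000030107, chromosome 6 at 121245906 to 121270917) had 20 and 11 reads in Mock and 29 and 32 in FeSO4, or 0.493 and 0.263 CPM against 0.846 and 0.865 CPM. The groups did not overlap, and the FeSO4 libraries were close to each other. The log2 fold change of 1.17 ± 0.58 did not pass (adjusted p = 0.177, edgeR's quasi-likelihood test; 95% interval -0.06 to 2.40). Of the 4 genes that attach Isg15, Ube2l6, its conjugating enzyme, rose by 0.90 ± 0.26 on the log2 scale (adjusted p = 0.0218), a call that was lost without Mock replicate 2 or FeSO4 replicate 1 (adjusted p up to 0.154). The other 3 did not pass: the activating enzyme Uba7 had a log2 fold change of -0.13, and the ligases Herc6 and Trim25 had 0.12 and -0.21.

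Oasl2, Mx1, Rsad2, Ifi44 and Rtp4 are further effectors. Oasl2 belongs to the oligoadenylate synthetase family of RNA sensors. Oasl2 (ENSMUSG00000029561, chromosome 5 at 114896926 to 114912245) had 20 and 32 reads in Mock and 51 and 58 in FeSO4, or 0.493 and 0.765 CPM against 1.49 and 1.57 CPM. The FeSO4 libraries were close to each other and above both Mock libraries. The log2 fold change was 1.27 ± 0.45 (95% interval 0.31 to 2.24) and the adjusted p of 0.0600 missed the threshold in edgeR's quasi-likelihood test.

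Rtp4 encodes an interferon-induced chaperone of receptors at the cell surface. Rtp4 (ENSMUSG00000033355, chromosome 16 at 23520219 to 23614222) had 62 and 38 reads in Mock and 81 and 70 in FeSO4, or 1.53 and 0.909 CPM against 2.36 and 1.89 CPM. The groups did not overlap. The log2 fold change was 0.80 ± 0.38 (adjusted p = 0.158, edgeR's quasi-likelihood test; 95% interval -0.00 to 1.61). It was 1.22 without Mock replicate 1 and 0.48 without Mock replicate 2.

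Mx1, Rsad2 and Ifi44 had too few reads to pass the filter. Rsad2 encodes viperin, an antiviral enzyme that holds an iron-sulfur cluster. Rsad2 (ENSMUSG00000020641, chromosome 12 at 26442743 to 26456452) had 2 and 0 reads in Mock and 22 and 1 in FeSO4. The 22 reads of FeSO4 replicate 1 were 0.625 CPM without TMM scaling (95% Wilson interval 0.413 to 0.947), and the other 3 libraries were at or under the 3-read limit. The groups thus overlapped, and 1 library held nearly all Rsad2 reads. With the filter removed its adjusted p was 0.155 in edgeR's quasi-likelihood test.

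Mx1 encodes a GTPase that blocks influenza viruses and whose allele in C57BL/6 mice is known to be non-functional. Mx1 (ENSMUSG00000000386, chromosome 16 at 97447035 to 97462906) had 3 and 1 reads in Mock and 5 and 3 in FeSO4. Ifi44 (ENSMUSG00000028037, chromosome 3 at 151730922 to 151749910), an interferon-induced protein of the cytoplasm, had 1 read in FeSO4 replicate 2 and 0 in the other 3 libraries. At this depth no difference in these genes was detectable, and no fold change is given.

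Of the 7 members tested, 1 was called higher at an adjusted p under 0.05 in edgeR's quasi-likelihood test, beside 10.6% of all 13732 genes tested. None of the 7 was called lower, beside 8.89% of all genes. Over all genes the balance of 1455 higher and 1221 lower calls turned to 939 and 1748 when scaling used library size only. The threshold of the study's methods (unadjusted p under 0.05 and a log2 fold change of at least 0.5 in size) was applied to this edgeR fit. At that threshold Ifit1 and Oasl2 were called higher, beside 4.47% of all genes, and 0 members were called lower, beside 5.58%. The study itself used DESeq2, so these are not its own calls. In 6 of the 7 both FeSO4 libraries lay above both Mock libraries, beside 30.1% of all genes tested. Among the 3634 tested genes under 3 CPM, where these 6 lie, the shares were 19.5% with both FeSO4 libraries above, 2.78% called higher and 4.32% called lower. The median log2 fold change of the 7 was 1.17, and that of all genes was -0.00. Ifit1 and Ifit3 passed the filter only through their FeSO4 libraries, so these counts and the median are a description of the members that passed.

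**Figure D2:**
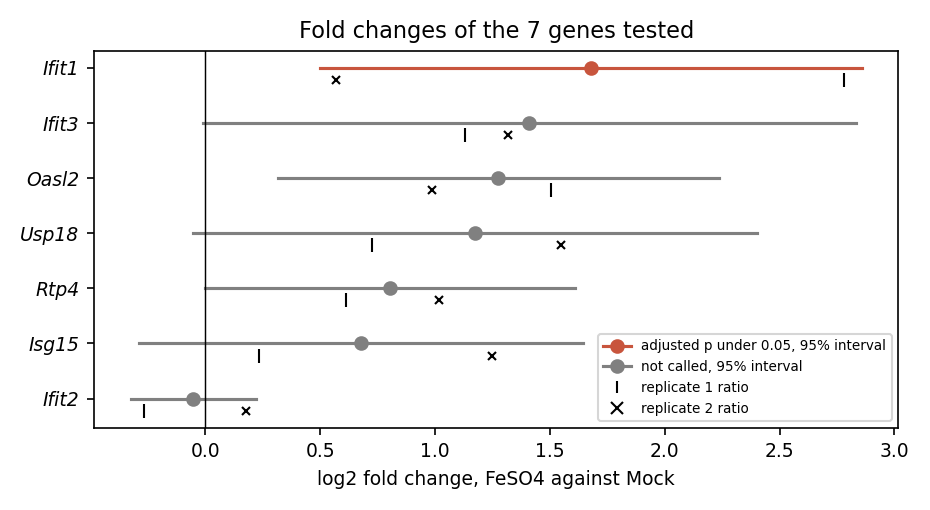
Log2 fold change of FeSO4 over Mock (horizontal) for the 7 tested members, as points with 95% intervals of edgeR's quasi-likelihood fit (red where called), with ticks and crosses for the ratios of replicates 1 and 2. The interval of Ifit2 is narrow and spans 0, and those of Ifit1 and Oasl2 lie above 0, of which Ifit1 alone passed after adjustment.

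Summed over the 10 members, the Mock libraries had 23.9 and 19.0 CPM and the FeSO4 libraries 25.7 and 25.3 CPM. Most of it was Ifit2. Without Ifit2 the Mock libraries had 4.29 and 3.49 CPM, against 9.37 and 7.67 CPM for the FeSO4 libraries. Both FeSO4 libraries were above both Mock libraries in both sums, by more in the sum without Ifit2.

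Divided by exon length, Ifit2 had the highest level of the members, at 4.48 CPM per kb in Mock and 4.31 in FeSO4. Isg15 followed at 1.19 and 1.91 CPM per kb, and Rtp4 at 0.775 and 1.35. In Mock the next 4 lay close together, Usp18 at 0.214, Ifit1 at 0.177, Oasl2 at 0.162 and Ifit3 at 0.125 CPM per kb. In FeSO4 Ifit1 was the highest of these 4, at 0.572 CPM per kb, above Usp18 at 0.483, Oasl2 at 0.394 and Ifit3 at 0.334. In Mock the spread between replicates is as large as the gaps within this group of 4, so its order is not resolved. In FeSO4 the same holds for the places of Ifit1 and Ifit3. The FeSO4 replicates of Usp18 and Oasl2 lay close together, and their order was not tested. Among all genes tested, the mean CPM of Ifit2 stood at percentile 45.5 and those of the other 6 at percentiles 6.79 to 21.4.

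**Figure D3:**
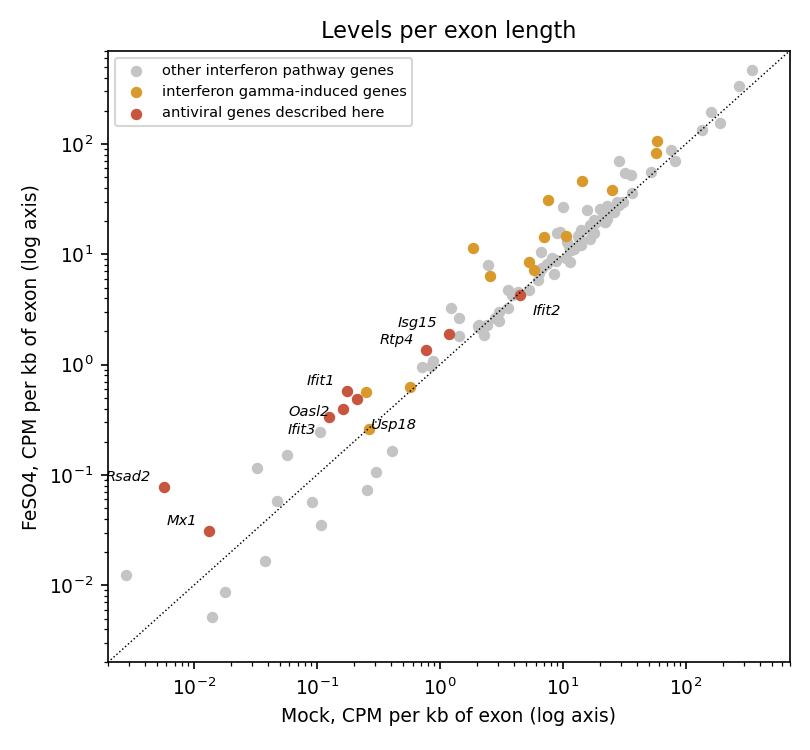
CPM per kb of exon in FeSO4 (vertical) against Mock (horizontal), both on log axes, as group means for the members in red, genes induced by IFN-γ in orange and other interferon pathway genes in gray, with the line of equal levels dotted and genes without reads in a group not drawn. Most members lie below 2 CPM per kb and above the line, and Ifit2 lies on it near 4.

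No reads were found for the 7 type I and III interferon ligand genes that matched an ID, in any of the 4 libraries, where a count of 0 allows at most 0.0876 CPM. The receptor genes of these interferons were expressed. Ifnar1 had a log2 fold change of -0.16 ± 0.07 (adjusted p = 0.117, edgeR's quasi-likelihood test), and Ifnar2 and Il10rb had 0.01 each. Ifnlr1, the specific receptor chain for type III interferon, had 60 and 44 reads in Mock and 15 and 17 in FeSO4, a log2 fold change of -1.49 ± 0.50 (adjusted p = 0.0482). This call was lost in 8 of 13 alternative fits, with any of the 4 libraries left out among them, and the adjusted p ran from 0.0153 to 0.293.

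Among the 11 signalling and IRF factors upstream of the members, 4 rose and 2 fell, beside 10.6% and 8.89% of all genes tested. Irf1 and Irf8, transcription factors that IFN-γ induces, rose by 0.67 ± 0.08 and 0.79 ± 0.10 on the log2 scale (adjusted p = 6.26e-05 and 0.000101, edgeR's quasi-likelihood test), and the kinase Jak1 fell by 0.21 ± 0.06. The Jak1 call was lost without Mock replicate 2, FeSO4 replicate 1 or FeSO4 replicate 2 (adjusted p up to 0.107). Stat2 and Irf9, which belong to the ISRE-binding complex, did not pass the test, Stat2 at a log2 fold change of 0.14 (adjusted p = 0.261) and Irf9 at 0.07 (adjusted p = 0.569). These 2 genes were picked after their values were seen, as was Irf7, the interferon-induced factor that drives interferon genes, which rose by 0.41 ± 0.13 (adjusted p = 0.0396). The Irf7 call was lost in 7 of 13 alternative fits, with any of the 4 libraries left out among them (adjusted p up to 0.139).

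Among 8 brakes on the pathway, 2 rose and 1 fell, beside 10.6% and 8.89% of all genes tested. The phosphatases Ptpn6 and Ptpn2 rose by 0.28 and 0.27 on the log2 scale, and the phosphatase Ptpn1 fell by 0.31. The Ptpn2 call was lost without Mock replicate 1 or FeSO4 replicate 1 (adjusted p up to 0.271). Of 13 tested nucleic acid sensors and adaptors, 2 rose and 1 fell, beside the same shares of all genes. Neither list was tested against these shares. Zbp1, a sensor of Z-form nucleic acid, had the smallest p of the sensors and adaptors. Its log2 fold change was 0.66 ± 0.10 (adjusted p = 0.00026, edgeR's quasi-likelihood test). The adaptor Tmem173 rose by 0.20, a call lost without Mock replicate 1, FeSO4 replicate 1 or FeSO4 replicate 2 (adjusted p up to 0.263). The kinase Ikbke fell by 0.26, a call lost without Mock replicate 2 or FeSO4 replicate 1 (adjusted p up to 0.181).

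Of 39 other interferon-stimulated genes tested, 9 rose, 3 fell and 27 did not pass, with a median log2 fold change of 0.13. Of all genes tested, 10.6% rose and 8.89% fell. Ifitm3, which blocks virus entry at membranes, rose from 19.3 ± 0.565 to 47.9 ± 2.78 CPM (SD, n = 2), a log2 fold change of 1.31 ± 0.09 (adjusted p = 2.51e-07, edgeR's quasi-likelihood test). Its relative Ifitm1 rose by 1.41 ± 0.12, the oligoadenylate synthetase Oas3 by 1.40 ± 0.14 and Slfn1 by 0.55 ± 0.07 on the log2 scale. Among those that fell were Adar, an RNA-editing enzyme, at -0.23 and Ddx60 at -1.77 on the log2 scale, both named after their values were seen. Both calls were lost without Mock replicate 2 or FeSO4 replicate 1, that of Adar also without FeSO4 replicate 2 and that of Ddx60 also without Mock replicate 1 (adjusted p up to 0.322 and 0.197).

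Ifng itself rose from 2.97 ± 0.503 to 9.61 ± 2.17 CPM (SD, n = 2), a log2 fold change of 1.69 ± 0.22 (adjusted p = 9.41e-05, edgeR's quasi-likelihood test). Its receptor chains did not pass, Ifngr1 at 0.12 and Ifngr2 at -0.20 on the log2 scale. Of 14 tested genes known mainly for induction by IFN-γ, 10 rose and none fell, beside 10.6% and 8.89% of all genes tested. Their median log2 fold change was 0.77. The guanylate-binding protein Gbp2 rose by 2.04 ± 0.11, the immunity-related GTPases Iigp1 and Igtp by 2.61 ± 0.15 and 0.88 ± 0.07, and the protease inhibitor Serpina3g by 1.69 ± 0.10 on the log2 scale. Whether the antiviral members and these genes differ in their change was not tested.

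**Figure D4:**
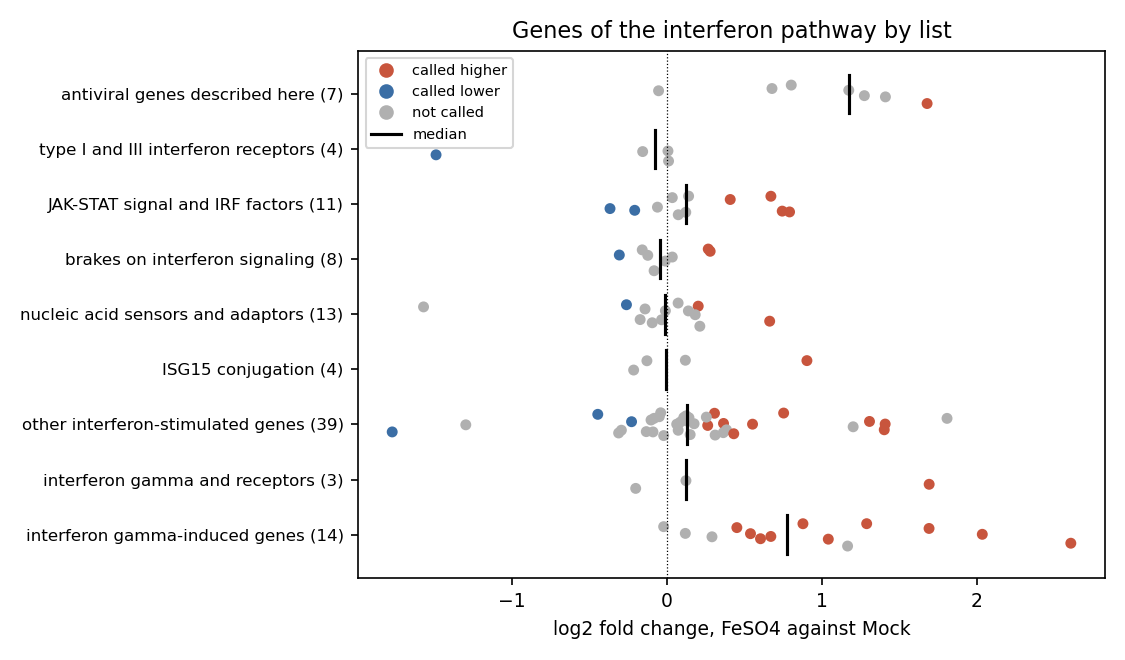
Log2 fold change of FeSO4 over Mock for each tested gene (points) of the interferon lists (rows), red where called higher, blue where called lower at an adjusted p under 0.05, gray otherwise, with a bar at each list's median. The antiviral members have 1 of 7 points called higher, where 10.6% of all tested genes were.

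Markers of other cell types that the cultures could hold are given as summed levels, Mock before FeSO4. Plasmacytoid dendritic cells are a main source of type I interferon, and their list of 6 genes summed to 32.3 and 33.7 CPM against 19.4 and 21.1 CPM, mostly from Tcf4 and Pacsin1. Their defining marker Siglech had 1 read in all, and Pacsin1 fell by 1.02 on the log2 scale. The 9 macrophage, monocyte and dendritic cell genes summed to 6.43 and 2.51 CPM against 1.90 and 2.35 CPM, with Clec9a at 0 reads in every library. Their highest sum was in Mock replicate 1, which had 164 Lyz2 reads against 8 in Mock replicate 2 and 0 in FeSO4. The 4 neutrophil genes summed to 0.394 CPM in Mock replicate 1 and had no reads elsewhere.

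The 5 B cell genes summed to 3.38 and 2.53 CPM against 2.60 and 2.38 CPM, with 1 Ms4a1 read in all. The 4 NK cell genes summed to 0.937 and 1.05 CPM against 1.23 and 0.513 CPM, with Ncr1, Klrb1c and Klra8 at 0 reads, and the 2 CD8 genes summed to 9.81 and 9.04 CPM against 9.95 and 11.0 CPM. The 4 erythroid genes summed to 25.9 and 20.9 CPM against 39.8 and 34.5 CPM, higher in FeSO4 as the members without Ifit2 were. Of these 4, Hba-a1 rose by 0.67 on the log2 scale. The part of these cells in the member values was not tested.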

How the data were processed

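The authors deposited a table of raw counts of reads per Ensembl gene, 1 column per library, not normalized. The submitters' processing notes list Trim Galore 0.6.7, STAR 2.7.9a, featureCounts and mm10, whereas the methods name mm9 and DESeq. The strand setting and the annotation release are not given in the sources used here. The closing rows of the table held unassigned reads (15.9 to 17.3% of a library) and were left out. Symbols and exon lengths came from GENCODE M1, which lacked 14930 of the 47729 IDs. Positions and promoter windows came from RefSeq (GRCm38.p6).

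The counts were filtered with filterByExpr (13732 genes), TMM-scaled and tested with the quasi-likelihood test of edgeR 4.0.16 in R 4.3.3, comparing FeSO4 with Mock, and p-values were adjusted by Benjamini-Hochberg across every gene tested. Standard errors are the log2 fold change divided by the square root of F. A permutation test of 2 against 2 libraries cannot give a two-sided p under 0.333 and was not used. The fit was tested on simulated data. Replicates differed beyond sampling noise, with a chi-square per degree of freedom of 11.3 in Mock and 9.02 in FeSO4. The members, pathway lists and marker lists were chosen with earlier results of these data known. Named genes are all 10 members, every gene of a list of 4 or fewer, and otherwise the 4 with the smallest p in a list. Some genes of these lists are counted but not reported here by name. Alternatives were other scalings and filters, DESeq2 1.42.0, limma-voom (limma 3.58.1) and the replicate number as a block. Others were the threshold of the methods applied to the edgeR fit, and each library left out.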

Additional observations from a re-analysis of the deposited data

How the results depend on the processing

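One member, Ifit1, was called higher in the fit reported. The number of members called higher was 0 when scaling used library size only, 0 with DESeq2, 0 with the replicate block, and 2 (Ifit1 and Oasl2) with at least 10 counts in every library or at the threshold of the methods. With each library left out it ran from 0 to 2: it was 0 without Mock replicate 1 or without FeSO4 replicate 1, and 2 (Ifit1 and Rsad2) without FeSO4 replicate 2. There the lone library is assumed to vary like the other group, and Rsad2 rests on 1 library. No member was called lower under any alternative. The 6 tested members other than Ifit2 had a positive log2 fold change in every alternative that could fit them, and Ifit2 in 2 of 13. Of the other pathway genes 8 were called lower, 2 at the threshold of the methods, and 3 to 5 with each library left out. Over all genes, 1455 were higher: 939 when scaling used library size only, 614 at the threshold of the methods, and 927 to 1159 with each library left out. Of the 1221 lower, the count was 1748 when scaling used library size only, 766 at that threshold, and 799 to 1030 with each library left out. With the replicate block 1743 were higher and 1467 lower, and the adjusted p of Ifit1 was 0.0575. Deviations of same-numbered libraries correlated at 0.03 over 13732 genes and at 0.22 over the 8522 with at least 10 CPM. The labels do not tie the numbers to experiments, so pairing could not be settled. A robust fit, chosen after seeing the data, gave 1 member. At 0 to 81 reads per library for the members other than Ifit2, depth limits every statement on them.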
